A study of Arabidopsis thaliana with 6 samples.

Results

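The homeodomain transcription factor genes of A. thaliana were examined for binding by LEAFY (LFY), the regulator of flower development. A form of LFY with mutations that disrupt its oligomerization was examined as well. Members were the protein-coding genes whose symbol or synonym in the gene table carries an HB or ATHB number, a WOX, KNAT or BLH number, or one of the names WUS, STM, BP, PNY, PNF and LMI1. This gave 79 of the 27444 protein-coding genes on the 5 chromosomes, 70 by their symbol and 9 by a synonym alone. The names did not all fit the label. GLB1 and GLB2, which are also called HB1 and HB2, are hemoglobin genes, SHM1 encodes a serine hydroxymethyltransferase that shares the synonym STM, and AT1G27050 shares the name ATHB54 with the neighbouring gene AT1G27045. These 4 were left without a class, and the other 75 belong to homeodomain classes: 17 to HD-ZIP I, 4 to HD-ZIP II, 4 to HD-ZIP III, 1 to HD-ZIP IV, 15 to WOX, 8 to KNOX, 11 to BELL and 14 to the zinc finger homeodomain (ZF-HD) class, beside RLT1, which joins a homeodomain to a DDT domain.

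Binding was measured by chromatin immunoprecipitation and sequencing (ChIP-seq) in whole 15-day-old seedlings. The genotypes were p35S:LFYTERE (line CA29-17), p35S:LFY (line CA26-15) and wild-type Col-0, with 2 biological replicates each and no treatment. The sample labels give a temperature of 23 °C for all samples. Both transgenes express an LFY cDNA constitutively from the viral 35S promoter. The substitutions in LFYTERE are T75E and R112E, both in the SAM domain through which LFY oligomerizes. The antibody (#4028) was raised against residues 223 to 424 of LFY, which lie outside that domain, so it also recognizes the endogenous LFY, whose expression in seedlings is low. Each genotype is a single line, and the ectopic expression means that a bound gene need not be one that LFY meets in a flower. The deposited lists give 176 bound regions for p35S:LFYTERE and 1954 for p35S:LFY, both called against Col-0. Each region has a rank within its list (1 is the best) and a coverage fold reduction (CFR). CFR is the coverage in p35S:LFY over that in p35S:LFYTERE. It thus has the mutant in the denominator, and a value above 1 means lower coverage in p35S:LFYTERE. By the study's account, very low coverage in p35S:LFYTERE gave some regions a very high or infinite CFR, so the size of a high CFR is uncertain. CFR comes from fused replicates, and the lists give 1 rank and 1 CFR per region. No value per library, standard deviation or test between the genotypes can thus be given for a gene. The depth behind a value is not in the lists. A region was assigned to a gene when its midpoint lay inside the gene or within 3 kb of it. The gene table gives no strand, so a place is described by the side of lower or higher coordinate and not as upstream or downstream.

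Homeodomain proteins bind DNA through a helix-turn-helix fold that is shared by all the classes. HD-ZIP proteins add a leucine zipper and bind as dimers. KNOX and BELL proteins join as pairs to maintain the shoot meristem and to pattern the stem, and WOX proteins, named after WUSCHEL, maintain stem cells and drive the outgrowth of organ margins. Several of these genes act beside LFY in the inflorescence: LMI1 is known as a meristem identity gene downstream of LFY, PNY and PNF are needed for the transition to flowering, and STM and WUS keep the stem cells from which flowers arise.

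No member had a p35S:LFYTERE region inside it or within 3 kb (0 of 79), where 1.49% of all protein-coding genes had one. In p35S:LFY, 13 of the 79 members had a region, 16.5%, where the share over all protein-coding genes was 13.5%. The 13 were ATHB13, HB21 and HB53 of HD-ZIP I, HB4 of HD-ZIP II, ATHB8 of HD-ZIP III, PRS and WOX13 of the WOX class, KNAT3 and KNAT7 of the KNOX class, ZHD1, ZHD6 and ZHD13 of the ZF-HD class, and RLT1. Both shares are close to those of all genes, and a share so near the background is not a result about the members. None of the 4 genes without a class was bound, and the share among the 75 others was 17.3%. Each of the 13 had a single region. Over all genes bound in p35S:LFY, 14.0% had more than 1, so few of the 13 would have had more in any case. More reads were mapped for p35S:LFY than for p35S:LFYTERE by the study's account, and the part of this difference in the shorter p35S:LFYTERE list was not tested.

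By class, the counts in p35S:LFY were 3 of 17 HD-ZIP I genes, 1 of 4 HD-ZIP II genes, 1 of 4 HD-ZIP III genes, 2 of 15 WOX genes, 2 of 8 KNOX genes and 3 of 14 ZF-HD genes. No BELL gene was bound (0 of 11), nor was HDG5, the single HD-ZIP IV member. With 13.5% as the share over all genes, classes of this size would hold few bound genes in any case, and the counts do not set one class apart from another.

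Other ways to assign regions to genes gave other counts. For p35S:LFYTERE, no member had a midpoint inside it (0.302% of all genes did) or within 1 kb (0.845%), and none was the nearest gene of a region (0.630%). Within 5 kb there were 2 members, ZHD8 and BLH2 (2.53%, where the share over all genes was 2.19%). For p35S:LFY, 3 members (3.80%) had a midpoint inside them, where 3.02% of all genes did, and 6 (7.59%) had one inside or within 1 kb, where 7.66% did. The nearest gene gave a wider gap: 10 members (12.7%) were the nearest gene of a region, where 6.40% of all genes were. Within 5 kb there were 20 members (25.3%, where the share over all genes was 19.3%) with a region.

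The members lay closer to regions than genes in general once the distance was extended. The median distance to the nearest p35S:LFYTERE region was 161 kb for members and 216 kb for all genes, and 7 members (ZHD8, BLH2, BLH1, KNAT3, HB53, HDG5 and HB40, 8.86%) had one within 10 kb, where the share over all genes was 3.89%. The median distance to the nearest p35S:LFY region was 13.1 kb for members and 20.3 kb for all genes, and 37 members (46.8%) had one within 10 kb, where the share over all genes was 31.5%. The members also had wider gaps to their neighbouring genes. Summed over both sides, the gaps had a median of 5.40 kb for members and 6.61 kb for the 13 bound ones. The median was 1.83 kb over all protein-coding genes and 2.14 kb over all genes with a p35S:LFY region. The part of this spacing in the shorter distances and in the share of nearest genes was not tested. Gene length hardly differed, with a median of 1994 bp for members and 2078 bp for all genes.

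**Figure D1:**
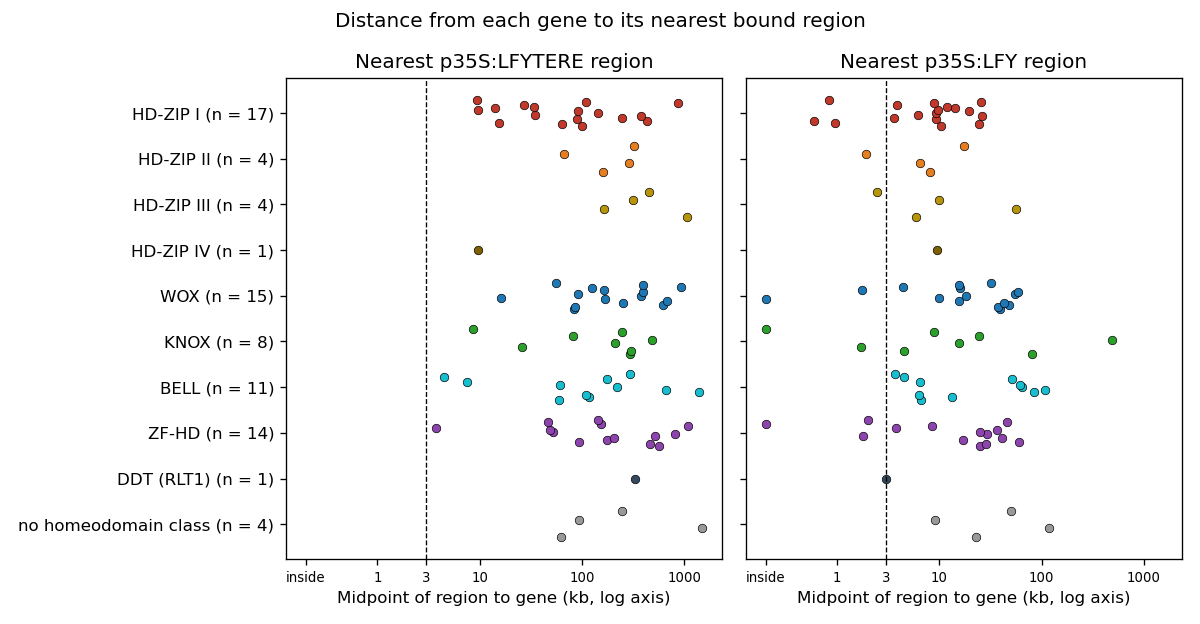
Distance from each of the 79 genes to the midpoint of its nearest p35S:LFYTERE region (left) and p35S:LFY region (right), in kb on a log axis, with 1 point per gene, rows for the classes and midpoints inside the gene drawn at the mark "inside". The dashed line is the 3 kb limit, to the left of which lie 0 genes for p35S:LFYTERE and 13 for p35S:LFY.

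The HD-ZIP I class held the 2 highest CFR values of the members, at ATHB13 and HB53. HB21, HB40 and HB53 are closely related genes that act in axillary buds downstream of BRC1, the regulator of bud dormancy, and ATHB13 is known for tolerance to cold. The region at ATHB13 (TAIR10 chromosome 1, 26257642 to 26258019) had a rank of 795 and a CFR of 70.1. Only 17 of the 1954 regions had a higher CFR. The region at HB53 (chromosome 5, 26633287 to 26633609) had a rank of 1103 and a CFR of 57.9, with 24 regions above it. The region at HB21 (chromosome 2, 8048496 to 8049052) ranked better than both, at 317, and had a CFR of 9.91. All 3 lay on the lower-coordinate side of the gene and within 1 kb of it, with midpoints 597 bp from HB21, 827 bp from HB53 and 958 bp from ATHB13. In each case the member was the only protein-coding gene within 3 kb of the region. HB40, the third gene of the bud group, had no region within 3 kb, and its nearest was 9.70 kb away with a CFR of 2.72.

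The remaining HD-ZIP I genes had no region within 3 kb. HB22 and ATHB3 were the closest to the limit. The nearest region of HB22 was 3.58 kb away and lay inside another gene, ProT3, a proline transporter gene. That of ATHB3, a close relative of ATHB13, was 3.87 kb away with a CFR of 27.6, and its nearest gene was BNQ2. HB20 and AtHB23, the other relatives of ATHB13, had their nearest regions at 6.15 and 10.3 kb. LMI1, the meristem identity gene, had no p35S:LFYTERE region closer than 33.8 kb and no p35S:LFY region closer than 11.8 kb (CFR 14.4). The other 8 genes, from HB52 to ATHB7, were 8.92 to 26.3 kb from a region.

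In the HD-ZIP II class, which acts in the response to shade, HB4 had a region on its higher-coordinate side with the midpoint 1912 bp away (chromosome 2, 18521474 to 18521812, rank 839, CFR 3.65). HB4 was its nearest gene. HB17, HB18 and ATHB2, a gene induced by shade, had their nearest regions at 6.45, 8.07 and 17.2 kb. In the HD-ZIP III class, ATHB8, which marks the procambium from which vascular strands form, had a region 2454 bp away on its higher-coordinate side (chromosome 4, 15870965 to 15871243, rank 1565) with a CFR of 20.5. It was the narrowest of the member regions, at 279 bp, and ATHB8 was the only gene within 3 kb. The nearest regions of PHV and PHB, which specify the upper leaf side, were 5.86 and 9.90 kb away, and that of CNA was 55.5 kb away. The bound HD-ZIP genes thus ran in CFR from 3.65 at HB4 to 70.1 at ATHB13.

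PRS (also named WOX3), which drives the outgrowth of organ margins and of the lateral sepals, had the best-ranked region of all members. It spanned 668 bp on chromosome 2 (12263094 to 12263761) with a rank of 77 and a CFR of 7.07, and 47.0% of all p35S:LFY regions had a lower CFR. Its midpoint lay 168 bp inside the higher-coordinate end of PRS, and 75.1% of the region was within the gene. WOX13, which acts in the fruit and in callus formation, had a region 1732 bp beyond its higher-coordinate end (chromosome 4, 16878997 to 16879369, rank 778) with a CFR of 23.3. WOX13 was the nearest gene and DAW1 the only other within 3 kb. The relatives of WOX13, namely WOX10 and WOX14, were 37.7 and 38.9 kb from a region. WOX1, which acts together with PRS in the leaf blade, was 58.9 kb from one, the longest distance in the class. WUS, which maintains the stem cells of shoot and flower, had its nearest region 15.5 kb away. Among the 13 WOX genes without a region, the nearest was WOX12 at 4.37 kb.

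In the KNOX class, KNAT3 and KNAT7 belong to the subclass that acts in differentiated tissue. The region of KNAT3 (chromosome 5, 8738278 to 8738785, CFR 4.25) crossed the higher-coordinate end of the gene, with its midpoint 70 bp inside, and had the lowest standing of the member regions at rank 1827. KNAT7, a regulator of secondary cell walls, had a region 1701 bp away on its lower-coordinate side (chromosome 1, 23335250 to 23335683, rank 1662, CFR 8.01). That region was 71 bp from AT1G62981, and the expansin gene EXPA18 was also within 3 kb. KNAT4 and KNAT5, the closest relatives of KNAT3, were 8.91 and 24.1 kb from a region. None of the 4 KNOX genes of the meristem subclass was bound within 3 kb. STM came closest, at 4.49 kb on its higher-coordinate side (chromosome 1, 23066384 to 23066725, rank 1608, CFR 14.2). That region had no protein-coding gene within 3 kb, and STM was the nearest. KNAT2 and KNAT6 were 15.5 and 80.8 kb from a region, and BP, which shapes the internodes and pedicels, was 487 kb from one, farther than any other member.

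The 11 BELL genes encode the partners of KNOX proteins. PNY had its nearest region 3.70 kb away (chromosome 5, 402602 to 403051, rank 440, CFR 23.5), inside the neighbouring gene PRA1.A1. PNF, its close relative, was 60.9 kb from one. BLH2, which restrains growth at the leaf margin, had a region 4.45 kb away (chromosome 4, 17364329 to 17364605, CFR 4.42) that was called in p35S:LFYTERE as well. The p35S:LFYTERE region (17364330 to 17364588) had a rank of 143 of 176 and a CFR of 4.38. Its nearest gene was AT4G36860. BLH1, BLH10 and BLH11 had regions at 6.42, 6.55 and 6.26 kb, and the other 5 at 13.1 to 109 kb.

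The 3 bound ZF-HD genes had low CFR values. ZHD13 had a region that crossed its lower-coordinate end, with the midpoint 23 bp inside (chromosome 5, 17154490 to 17154992, rank 692, CFR 3.62), and AT5G42770 was 123 bp from that midpoint. ZHD6 had a region 1771 bp away (chromosome 2, 7969050 to 7969442, rank 1739) with a CFR of 3.33, the lowest of all member regions. That region was 52 bp from AT2G18340 and 138 bp from AT2G18330. ZHD1 had one 2005 bp away (chromosome 5, 26139412 to 26139707, rank 1456, CFR 4.95), and the cyclin gene CYCD4;1 was slightly closer, at 1911 bp. ZHD8 lay just beyond the limit. Its nearest p35S:LFYTERE region (chromosome 5, 4942846 to 4943086, rank 166, CFR 3.57) was 3759 bp away, and the overlapping p35S:LFY region (4942821 to 4943118, rank 805, CFR 3.71) was 3762 bp away. AT5G15220 was the nearest gene of both, 182 bp from the p35S:LFYTERE midpoint and 185 bp from the p35S:LFY midpoint. RLT1, a partner of ISWI chromatin remodelers that delays flowering, had the widest member region at 747 bp (chromosome 1, 9990334 to 9991080, rank 184, CFR 3.67). With its midpoint 2970 bp from RLT1 it was the last member within the limit, and the cytochrome P450 gene CYP705A24 was nearer, at 1954 bp.

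**Figure D2:**
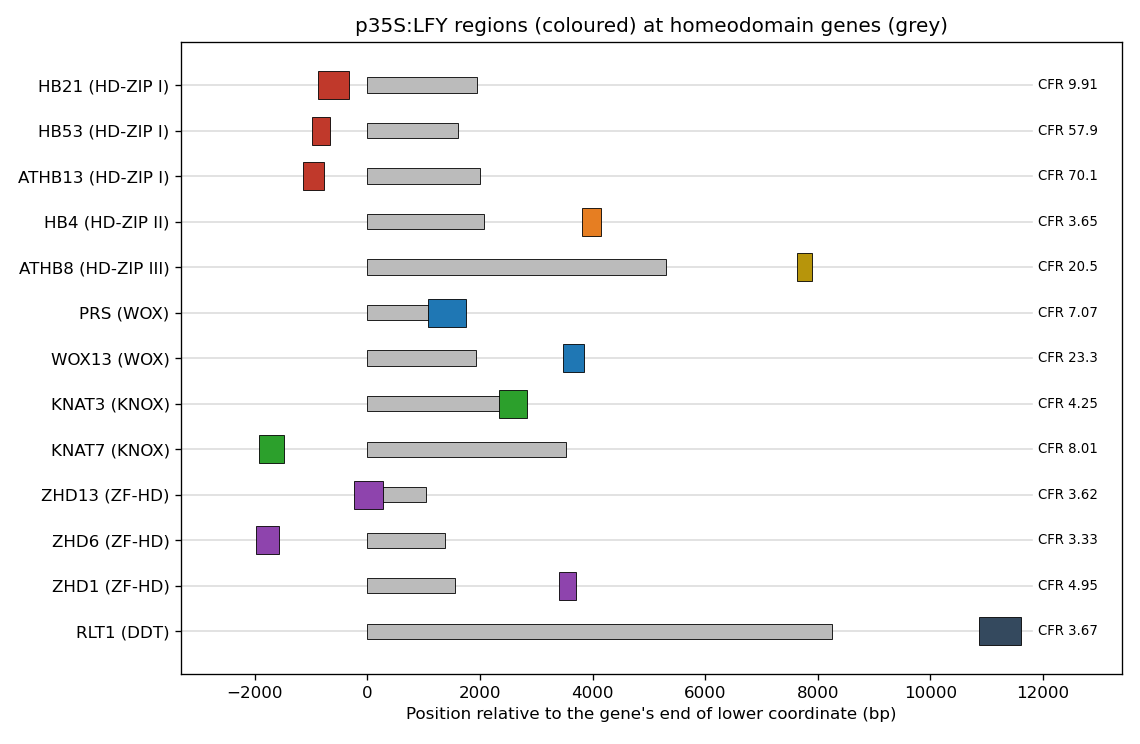
Position of the p35S:LFY region (coloured by class) relative to each of the 13 bound genes (grey), in bp from the gene's end of lower coordinate and to scale, with the CFR at the right. The regions of PRS, KNAT3 and ZHD13 cross an end of the gene, and the 10 others lie outside it, 5 on each side.

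The 13 regions differed in place. In 3 cases the midpoint was inside the member, 23.1% of the regions, where 43.7% of all p35S:LFY midpoints were inside a protein-coding gene. Each of these 3 regions crossed an end of the gene, as did 39.2% of all regions with the midpoint inside a gene. The member was the nearest gene for 9 of the 13 regions. For KNAT7, ZHD6, ZHD1 and RLT1 another gene was nearer. At 4 regions, those of HB21, HB53, ATHB13 and ATHB8, no other protein-coding gene was within 3 kb. None of the other genes within 3 kb of a member region had a p35S:LFYTERE region, where the share over all genes was 1.49%. These other genes are few and that share is low, so the absence says nothing about the surroundings of the members.

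The members' CFR values had a median of 7.07, against 7.40 over all 1954 regions, and a range of 3.33 to 70.1. With regions assigned to their nearest gene only, which leaves out KNAT7, ZHD6, ZHD1 and RLT1 and brings in STM, the members' median was 12.0. In order of CFR, not of rank, the highest member values were near the top, while the lowest, 3.33, still had 9.11% of all regions below it. A CFR above 10 was found at 4 of the 13 regions, 30.8%, where the share over all regions was 35.3%. The same 4 (ATHB13, HB53, WOX13 and ATHB8) had a CFR above 20, 30.8%, where the share over all regions was 13.5%. A CFR above 50 was found at 2 regions, 15.4%, where the share over all regions was 1.74%. A CFR below 5 was found at 6 regions (KNAT3, RLT1, HB4, ZHD1, ZHD6 and ZHD13), 46.2%, where the share over all regions was 26.6%. The shares above 20, above 50 and below 5 rest on few regions, so their gaps to the shares over all regions are a description only. The highest value was 21.1 times the lowest. None of the 13 regions overlapped a p35S:LFYTERE region, where 8.85% of all p35S:LFY regions did. With a share of 8.85%, few of 13 regions would overlap one in any case, so this absence is not a result about the members. It held for the 6 regions of low CFR and the 4 of high CFR alike.

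**Figure D3:**
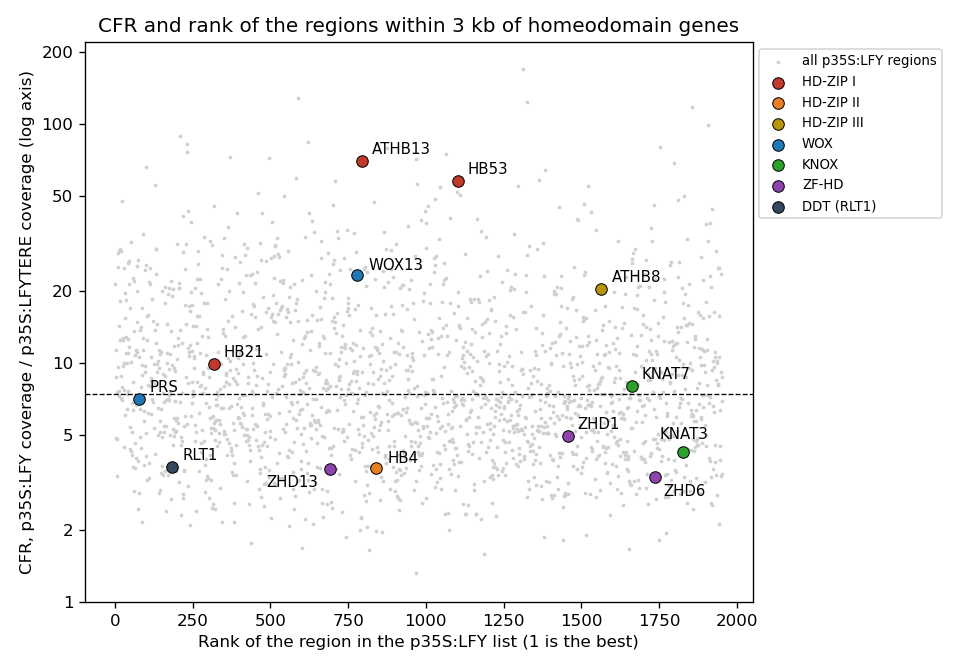
CFR (p35S:LFY coverage over p35S:LFYTERE coverage, log axis) against rank in the p35S:LFY list for the 13 member regions (large points, coloured by class) and all regions (small grey points, the 2 with a CFR above 200 not drawn). The dashed line is the median of all regions, 7.40, and the members lie from rank 77 (PRS) to 1827 (KNAT3) and from a CFR of 3.33 (ZHD6) to 70.1 (ATHB13).

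Rank and width, like the median CFR, did not set the members apart. Their median rank was 839, against 978 over all regions, and 7 of 13 were among the best 1000 regions by rank (53.8%, where the share over all regions was 51.2%). Their median width was 393 bp, against 365 bp. The better-ranked regions were not those of high CFR. PRS and RLT1, at ranks 77 and 184, had values of 7.07 and 3.67, and the 4 regions with a CFR above 20 had ranks of 778 to 1565. The lowest in rank, KNAT7, ZHD6 and KNAT3 at 1662, 1739 and 1827, also had lower values, of 8.01, 3.33 and 4.25. The 3 regions with midpoints inside a member had CFR values of 3.62 to 7.07, and the 10 outside had a median of 8.96. Over all regions the median was 7.01 inside genes and 8.04 outside.

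**Figure D4:**
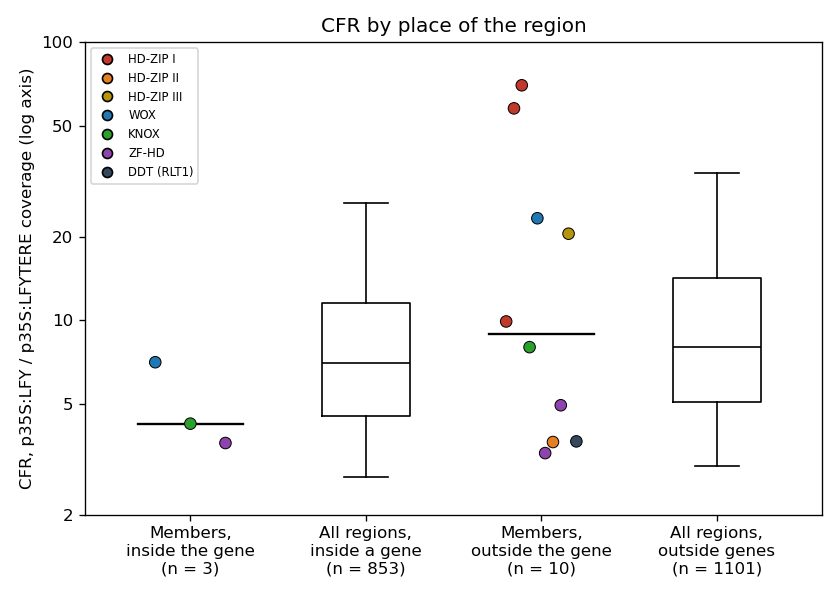
CFR (log axis) of the member regions by the place of the midpoint, each beside all p35S:LFY regions of the same place. Points are member regions coloured by class with a line at their median (4.25 inside, 8.96 outside), and boxes show the quartiles and median of all regions with whiskers to the 5th and 95th percentiles.

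Further homeodomain genes that the names above leave out gave similar counts. Of 30 such genes, 1 had a p35S:LFYTERE region within 3 kb (3.33%, where the share over all genes was 1.49%) and 5 had a p35S:LFY region (16.7%, where the share over all genes was 13.5%). HAT3, an HD-ZIP II gene of leaf polarity, had a region inside it (chromosome 3, 22321025 to 22321579) with a rank of 32 and a CFR of 19.7. HAT2, another HD-ZIP II gene, had one at 706 bp (CFR 5.12), FWA, an HD-ZIP IV gene whose silencing in the plant body permits flowering on time, had one at 1789 bp (CFR 11.1), and PRHA had one at 1871 bp (CFR 6.27). HDG1, an epidermal HD-ZIP IV gene, was the single one of the members and these 30 genes bound in both genotypes within 3 kb. Its p35S:LFYTERE region (chromosome 3, 22635278 to 22635580) had a rank of 162 and a CFR of 3.24, and its p35S:LFY region (22635287 to 22635622) had a rank of 856 and a CFR of 3.33. With BEL1 and ATH1 added, 0 of 13 BELL genes had a p35S:LFY region within 3 kb. With the 6 HAT genes added, 3 of 10 HD-ZIP II genes had one.

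Genes known to act with, upstream or downstream of these families were bound at 0 of 18 in p35S:LFYTERE, where the share over all genes was 1.49%, and at 7 of 18 in p35S:LFY (38.9%, where the share over all genes was 13.5%). The list was written with earlier results on AG and GA20OX1 known, so its count is a description only. OFP1 and OFP5 encode ovate family proteins, which bind KNOX and BELL proteins. OFP1 had 2 regions, one inside it (chromosome 5, 324365 to 324906, rank 126, CFR 8.15) and one at 1069 bp (CFR 16.9), and OFP5 had one inside it (CFR 3.82). ZPR2, a small inhibitor of HD-ZIP III proteins, had one at 1096 bp (CFR 7.45). Of the organ boundary genes that switch on STM, CUC2 had a region inside it (CFR 12.6) and CUC3 one at 1040 bp (chromosome 1, 28674904 to 28675267, rank 1079) with a CFR of 40.4, and CUC1 had none closer than 25.6 kb. The other bound genes were AG, which specifies stamens and carpels, with a region inside it (CFR 10.1), and GA20OX1, a gibberellin synthesis gene downstream of KNOX proteins, with one inside it (CFR 7.80) and one at 2865 bp (CFR 22.2). AS1 and AS2, the repressors of KNOX genes in leaves, CLV1 and CLV3, which restrict WUS, IPT7, ZPR1, ZPR3 and OFP2 to OFP4 had no region within 3 kb.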

How the data were processed

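The authors mapped the reads to TAIR10 (the build is in the submitters' processing notes), removed duplicates and found peaks with SHORE, and kept regions that passed in all 4 comparisons of 2 replicates with 2 Col-0 controls. In the deposited lists the rank is a score without unit. CFR is a linear ratio that the authors computed on coverage after scaling replicates to each other and genotypes on Col-0 background peaks. Depth per library is not in the lists, and intervals on single values were not computed.

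Genes came from a RefSeq table of TAIR10.1 (27444 protein-coding genes on 5 chromosomes), used for names and for distances to region midpoints. Printed coordinates are those of the TAIR10 lists. Whether both use the same positions was checked by moving all midpoints: 56.3% lay outside genes as deposited, against 51.9% or less after shifts of 500 bp or more. Classes were set by hand from the locus.

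The members and lists were chosen with earlier results of these data known, so counts and medians stand beside those of all features, without tests. Named were all members with a region within 3 kb, the 6 genes named in the rule, nearest other genes, and members with a region just beyond 3 kb; other unbound members and genes of the 2 further lists were added for context. ZPR4 was not matched. Alternatives were windows of 1 and 5 kb, any base within 3 kb, the nearest gene only, stricter lists of regions or members, and an overlap of 50%. Python 3.11.15, numpy 2.4.6, pandas 2.3.3, scipy 1.17.1 and matplotlib 3.10.9 were used.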

Additional observations from a re-analysis of the deposited data

How the results depend on the processing

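The count of 13 members bound in p35S:LFY moved with the distance allowed and with the depth of the list: it was 6 with a window of 1 kb, 20 with 5 kb and 7 with the best 1000 regions by rank. The share over all genes moved as well, to 7.66% at 1 kb and 19.3% at 5 kb. The best 1000 regions are 51.2% of all p35S:LFY regions, so fewer genes of any kind lie near them. With 5 kb, 2 members (ZHD8 and BLH2) were bound in p35S:LFYTERE, and 2 member regions of p35S:LFY were shared with that list, in place of 0 for both. Of the 30 values recomputed, the remaining 25 stayed within 1.5 times the count given or within the interval of the median. For many of them this could not come out otherwise: narrower windows and stricter lists cannot raise a count of 0. The count in p35S:LFY was 10 to 13, and the median CFR was 6.48 to 12.0. The interval of the median was the 95% binomial one over the 13 regions (3.65 to 23.3). It is wide and comes from the same regions, so staying within it says little about stability. The 12.0 came with the nearest gene only, where KNAT7, ZHD6, ZHD1 and RLT1 drop out and STM enters, against 7.07 as given. No paired analysis was possible because the lists hold no value per replicate. For the same reason no replicate could be left out.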
